A study of Homo sapiens with 12 samples.

Results

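The 42 genes described here are mitosis genes, listed by symbol, whose products drive entry into mitosis, build the spindle, hold and check the kinetochores and separate the sister chromatids. A gene was kept when it had a probe with a detection p under 0.01 on at least 3 of the 12 arrays, and 41 of the 42 were kept, among 11808 genes tested. NCAPH, a subunit of condensin I, was not kept, since its probe was detected on 1 of 12 arrays, that of replicate 3 of untreated HCC827-Del-TM. No measured change entered this rule, but the 42 genes themselves were chosen with earlier results of these data known. No test of the list as a whole was therefore made.

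Messenger RNA of 2 related human lung adenocarcinoma lines was measured on 12 Illumina bead arrays of 1 colour, 3 biological replicates for each of 4 groups. In HCC827-Del the EGFR gene has a deletion, and the EGFR of HCC827-Del-TM has a substitution besides that deletion. Cells were kept for 72 h in DMSO, here called untreated, or in both 2.5 µM decitabine, a nucleoside inhibitor of DNA methyltransferases, and 1 µM vorinostat, an inhibitor of histone deacetylases. Since the drugs were only given together, the effects of the 2 cannot be told apart, and whether either line is a single clone is given in none of the sources used here.

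In proliferating cells, transcripts of mitosis genes accumulate from S phase to mitosis and are cleared as cells leave the cycle. Their promoters are held silent in resting cells by the DREAM complex and are activated later by MYBL2 and FOXM1 bound to the MuvB core, while NF-Y binds CCAAT boxes in many of them. Cyclin-dependent kinase inhibitors such as p21, the product of CDKN1A, lower kinase activity upstream of this switch.

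Between 16251 and 19671 of 47323 probes were detected per array, and the log2 intensities of replicates correlated across genes at r = 0.995 to 0.996. All 6 epithelial markers (EPCAM, CDH1 and 4 keratins) were detected on every array. With treatment, 4 of them fell and 1 rose in HCC827-Del (median -0.53, from -1.3 to 0.28), where 26.5% and 24.8% of all genes did. The mean signal of KRT7 was 3760 in untreated and 1680 in treated HCC827-Del. In HCC827-Del-TM 1 fell and 3 rose (median 0.24, from -0.33 to 0.48), where 24.1% and 21.7% of all genes did. Of markers of other cells, 2 to 3 of 7 blood cell, 0 to 2 of 4 endothelial and 1 to 2 of 5 fibroblast and muscle genes were detected on all 3 arrays of a group. The summed signals of the blood cell probes ran from 3673 to 4281 in untreated and from 4948 to 5491 in treated HCC827-Del, and from 4035 to 4283 and from 4769 to 5479 in HCC827-Del-TM. The endothelial probes summed to between 481 and 492 in treated HCC827-Del and to between 364 and 393 in the other groups. The fibroblast and muscle probes summed to between 576 and 616 in untreated and 620 and 653 in treated HCC827-Del, and to between 553 and 575 in HCC827-Del-TM. PTPRC, CD3E, MS4A1, HBB, CDH5, KDR, COL3A1, PDGFRB and MYH11 were detected on no array. Other genes of the same lists rose with treatment: CD3D (at least 5.8-fold), VWF (at least 2.74-fold) and DES (at least 1.73-fold) in HCC827-Del, and CD3D by 1.58 log2 units in HCC827-Del-TM. CD14 rose by 1.57 log2 units in HCC827-Del and 1.05 in HCC827-Del-TM, PECAM1 passed as higher in HCC827-Del alone, from undetected, and CD68 in HCC827-Del-TM alone (0.29), while COL1A1 fell in HCC827-Del (-0.43). The part of these markers in the values below was not tested.

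After treatment, every kept mitosis gene fell in HCC827-Del-TM, while in HCC827-Del most moved little. On each array, the differences of the 41 genes from their means in untreated HCC827-Del had medians of -0.01, -0.01 and 0.01 log2 units on the untreated HCC827-Del arrays themselves. The medians were -0.17, -0.18 and -0.13 in treated HCC827-Del, 0.03, 0.10 and 0.07 in untreated HCC827-Del-TM, and -1.06, -1.03 and -1.03 in treated HCC827-Del-TM. Over all genes tested, the same medians lay between -0.06 and 0.01 on every array. The 3 treated HCC827-Del-TM arrays therefore stood apart from the other 9, which differed among themselves by much less. In bulk RNA, fewer cells in mitosis and less of these transcripts per cell cannot be told apart.

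**Figure D1:**
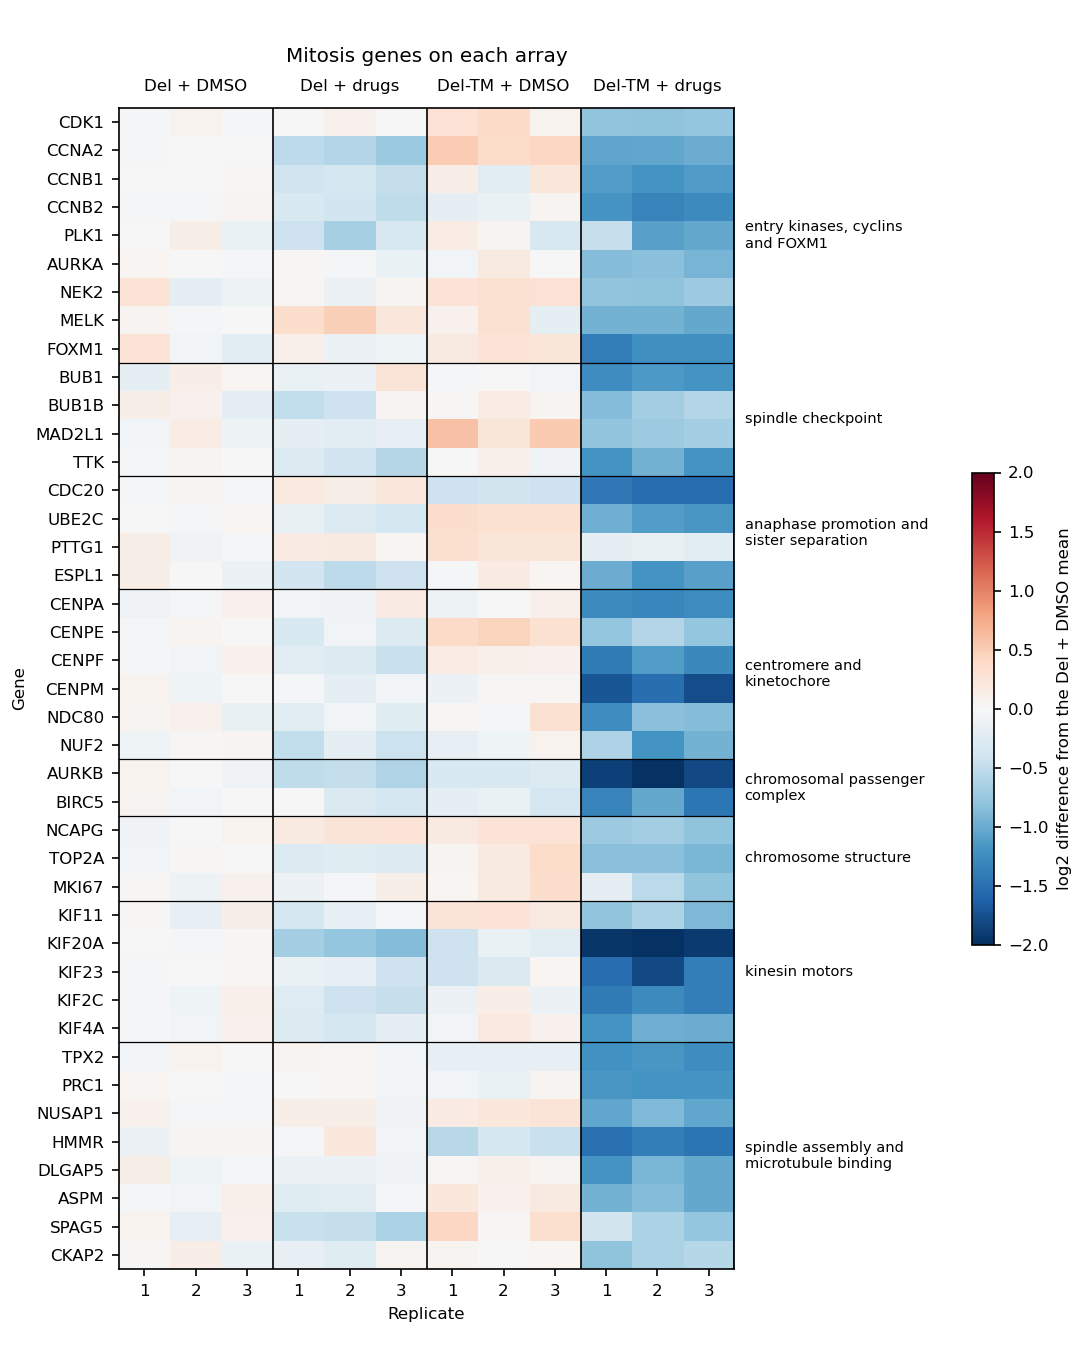
Log2 difference of each of the 41 kept mitosis genes (rows, grouped by role) from its mean on the untreated HCC827-Del arrays, for each of the 12 arrays (columns, replicates 1 to 3 of each group, blue lower and red higher). The columns of treated HCC827-Del-TM are blue in all 41 rows, with medians of -1.06, -1.03 and -1.03.

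In HCC827-Del-TM, all 41 genes were called lower after treatment (limma, Benjamini-Hochberg adjusted p under 0.05 over all genes tested), where 24.1% of all genes were. The log2 fold changes ran from -1.69 for KIF20A to -0.46 for PTTG1 with a median of -1.10, against a median of -0.01 over all genes. As a share of the untreated level, the 41 transcripts stood at 31.1% to 72.8%, with a median of 46.6%. A fall of at least 1 log2 unit was reached by 31 members (75.6% of the 41), against 2.02% of all genes, and these 31 made up 13% of the 238 genes that fell so far. Among the 50 lowest fold changes of all genes were 4 members, KIF20A, CENPM, AURKB and FOXM1. In each of the 41 genes the 3 treated arrays lay below the 3 untreated ones, as did 28.8% of all genes. Without background correction, as with the authors' log2 values, all 41 were still called lower, but 14 reached 1 log2 unit. BIRC5, BUB1B, ESPL1, FOXM1, KIF11, MKI67, NDC80, NUF2, PLK1 and SPAG5 then fell over 1.5 times less (-0.97 for FOXM1 to -0.23 for MKI67). KIF20A remained lowest at -1.44 and -1.45, while the smallest falls became those of MKI67 and SPAG5 (-0.28) in place of PTTG1 (-0.45).

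In HCC827-Del, 15 members fell and 3 rose, while 23 did not pass the test. Over all genes, 26.5% were called lower and 24.8% higher, so the members had a larger share called lower and a smaller share called higher than the background. The median log2 fold change was -0.18, against -0.03 over all genes, and the median level was 88.5% of the untreated one. Groups did not overlap for 18 members that were lower and 3 that were higher, against 30.2% and 28% of all genes. With median scaling of the arrays, 16.6% of all genes were called lower and 26.3% higher, and of the members 10 were called lower and 1 higher.

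The test of the difference between the treatment effects of the lines passed for 39 of the 41, all with the lower value in HCC827-Del-TM, where 22.3% of all genes had such a call. With median scaling, 23.5% of all genes were called lower and 11.1% higher in place of 22.3% and 20.3%. The median difference was -0.93 log2 units, against 0.01 over all genes, and 18 members were lower by at least 1 in HCC827-Del-TM, against 4.96% of all genes. PLK1 (-0.36, SE 0.228, adjusted p = 0.231) and SPAG5 (-0.32, SE 0.171, adjusted p = 0.147) were the 2 that did not pass. Across the 41 genes, the fold changes in the lines correlated at a Pearson r of 0.36 and a Spearman rho of 0.32, as a description, since the genes share their arrays and are not independent. The 15 members that fell in HCC827-Del had a median fold change of -1.18 in HCC827-Del-TM, and the other 26 one of -1.07.

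**Figure D2:**
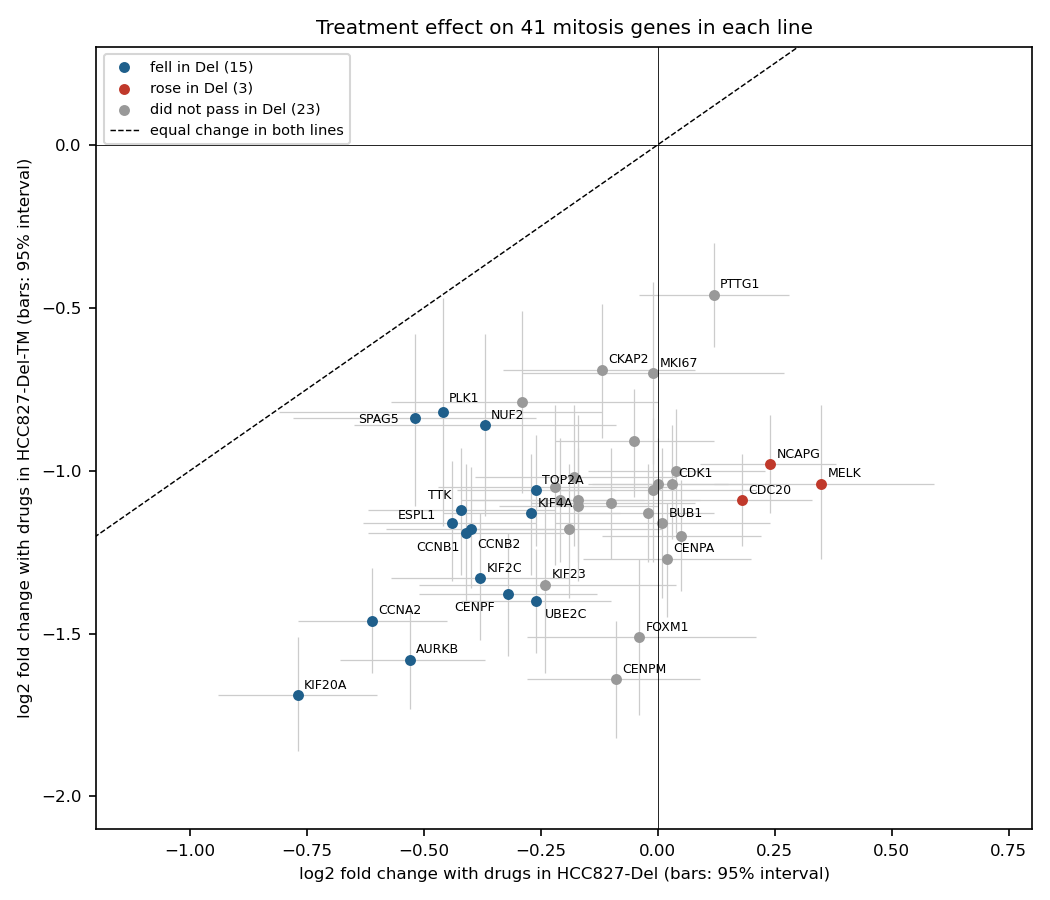
Log2 fold change with the drugs in HCC827-Del (horizontal axis) and in HCC827-Del-TM (vertical axis) for 41 mitosis genes. Points are estimates from 3 arrays per group, bars are 95% confidence intervals, and colour gives the call in HCC827-Del (15 fell, 3 rose, 23 did not pass). All points lie below the dashed line of equal change.

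The promoters of these genes were read for the elements through which cell cycle genes are known to be regulated, and 4 are shown because they mark the ends of the response or carry the most matches. RefSeq promoter entries (GRCh38.p14) were at hand for 35 of the 42 members, and not for FOXM1, UBE2C, AURKA, BIRC5, TTK, TPX2 and CENPM. Each sequence holds the 250 bases before the first listed start, 5′ to 3′ on the strand of the gene. Capitals mark matches of CCAAT, the box bound by NF-Y, and of TTTGAA, the core of the CHR, the element bound by the MuvB subunit LIN54. A match on the opposite strand appears as ATTGG for the box of NF-Y and as TTCAAA for the core of the CHR. KIF20A had the lowest and PTTG1 the highest fold change in HCC827-Del-TM, MELK the highest in HCC827-Del, and HMMR, added after the matches were seen, the most matches among members with both motifs. They lie at chr5:138178862-138179111, chr5:160421605-160421854, chr9:36572645-36572894 and chr5:163460382-163460631 in that order, all on the plus strand.
KIF20A: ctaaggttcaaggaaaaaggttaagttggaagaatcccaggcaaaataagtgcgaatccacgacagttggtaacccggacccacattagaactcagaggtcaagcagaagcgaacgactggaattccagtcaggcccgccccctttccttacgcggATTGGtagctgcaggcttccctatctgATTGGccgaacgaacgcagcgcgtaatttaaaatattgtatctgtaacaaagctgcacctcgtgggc
PTTG1: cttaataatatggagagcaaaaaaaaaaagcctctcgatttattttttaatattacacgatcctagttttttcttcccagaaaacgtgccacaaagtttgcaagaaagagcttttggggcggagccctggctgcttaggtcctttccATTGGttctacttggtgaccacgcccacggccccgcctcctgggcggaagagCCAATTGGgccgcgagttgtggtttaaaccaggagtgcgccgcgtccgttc
MELK: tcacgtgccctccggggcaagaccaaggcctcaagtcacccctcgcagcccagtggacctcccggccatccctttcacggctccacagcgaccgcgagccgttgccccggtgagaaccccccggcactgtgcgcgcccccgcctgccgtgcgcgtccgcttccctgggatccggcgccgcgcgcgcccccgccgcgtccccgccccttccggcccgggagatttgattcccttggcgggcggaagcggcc
HMMR: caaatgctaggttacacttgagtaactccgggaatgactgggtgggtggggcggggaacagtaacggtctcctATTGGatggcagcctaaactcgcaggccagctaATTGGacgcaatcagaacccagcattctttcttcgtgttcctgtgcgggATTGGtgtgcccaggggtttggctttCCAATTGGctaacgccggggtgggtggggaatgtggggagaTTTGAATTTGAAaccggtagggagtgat
In these windows KIF20A had 2 CCAAT matches and no TTTGAA, PTTG1 3 and none, MELK none of either, and HMMR 5 and 2. Matches that overlap were counted separately, as in PTTG1 and HMMR, where 1 match on each strand shares bases.

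TTTGAA on either strand was in the windows of 17 of the 35 members (48.6%), against 13.6% of 27305 genes with an entry and 8.85% of the 9477 of them that were tested. CCAAT was in 26 (74.3%), against 33% and 35.8%, and at least 2 copies were in 15 (42.9%), against 10% and 13.4%. Both motifs together were in 15 members (42.9%), against 4.85% and 3.71%. In the members, the first base of a match had a median of -34 bases from the start for TTTGAA (quartiles -112 and -28). For CCAAT it was -79 (quartiles -112 and -55). Positions were not taken for other genes. Dinucleotides CpG, the target of DNA methyltransferases, numbered 20 per window in the median, against 21 in genes tested and 11 in all genes. Within the members, the medians in HCC827-Del-TM with and without TTTGAA were closer to each other than those with and without CCAAT. All were taken with background correction. The 17 kept members with TTTGAA had a median log2 fold change of -1.09 in HCC827-Del-TM and the 17 without it one of -1.16, and the medians in HCC827-Del were -0.17 and -0.21. For CCAAT the medians in HCC827-Del-TM were -1.13 with it (25 genes) and -0.98 without it (9 genes). No match says only that these letters were not in this window.

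**Figure D3:**
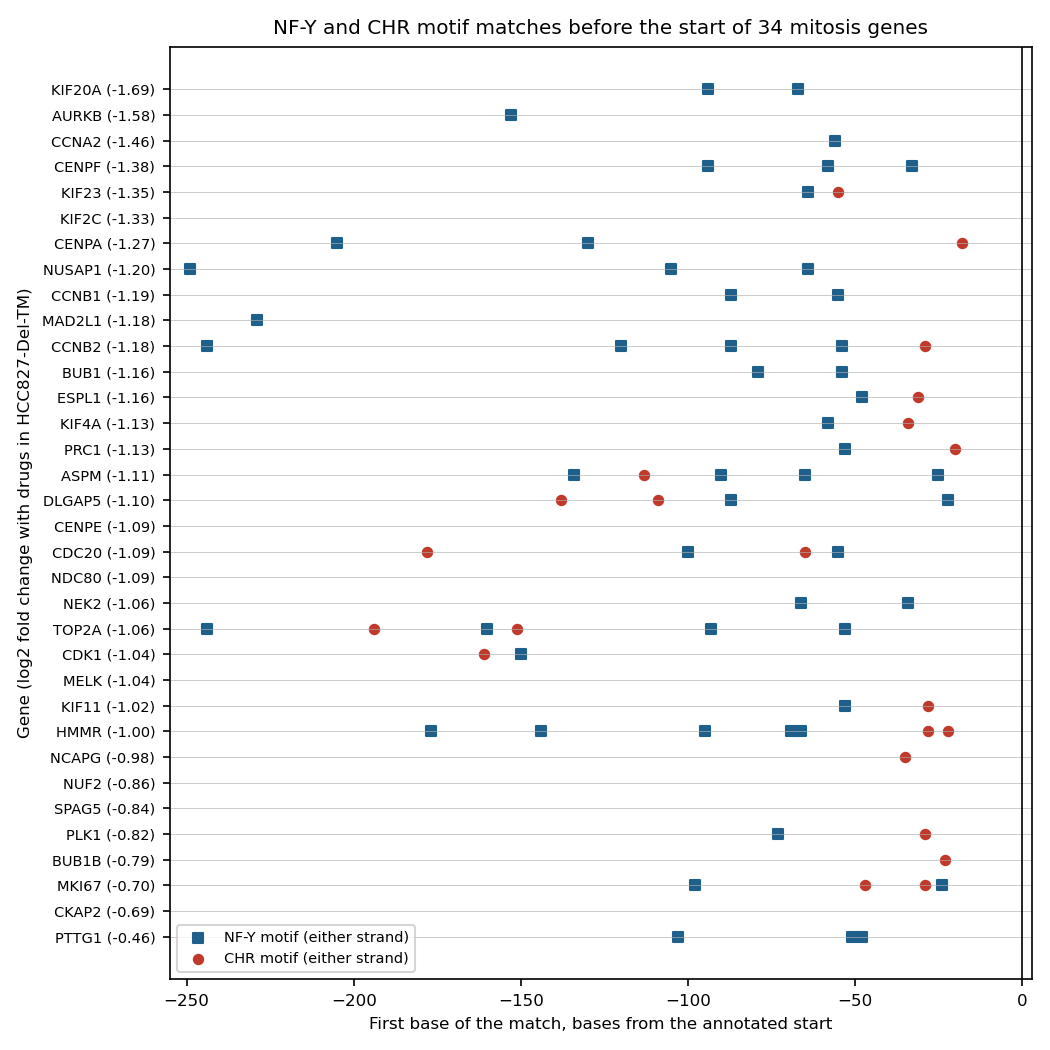
First base of each match of the NF-Y motif (squares) and the CHR motif (circles), on either strand, in the 250 bases before the annotated start (horizontal axis, bases from the start) of 34 kept mitosis genes. Genes are ordered from the lowest log2 fold change with the drugs in HCC827-Del-TM (KIF20A, top) to the highest (PTTG1, bottom); genes with either motif are spread over the order.

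The kinases, cyclins and transcription factor of mitotic entry (9 genes) all fell in HCC827-Del-TM, with a median of -1.06, and in HCC827-Del 4 fell and 1 rose. Counts of this role and of those below are to be read against all genes. Of these 24.1% fell in HCC827-Del-TM, and 26.5% fell and 24.8% rose in HCC827-Del. CDK1, the mitotic kinase, gave -1.04 in HCC827-Del-TM and 0.03 (adjusted p = 0.789) in HCC827-Del, where its cyclins CCNA2, CCNB1 and CCNB2 fell by 0.61, 0.41 and 0.40. In HCC827-Del-TM these cyclins fell by 1.46, 1.19 and 1.18. FOXM1, the activator of late cell cycle genes, had the lowest value of the group, though not without background correction, where CCNA2 (-1.29) was lower than FOXM1 (-0.97). FOXM1 had log2 intensities of 7.94, 7.60 and 7.43 in untreated HCC827-Del, 7.76, 7.54 and 7.57 in treated HCC827-Del, 7.84, 7.93 and 7.90 in untreated HCC827-Del-TM and 6.27, 6.44 and 6.43 in treated HCC827-Del-TM. The treated HCC827-Del-TM arrays were the low ones. Untreated HCC827-Del overlapped both other groups, while treated HCC827-Del lay below untreated HCC827-Del-TM without overlap. FOXM1 fell by 1.51 (SE 0.113, adjusted p = 1.49e-07) in HCC827-Del-TM and gave -0.04 (adjusted p = 0.803) in HCC827-Del, so the difference of effects was -1.47 (SE 0.16, adjusted p = 7.99e-06), or -0.94 without background correction.

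PLK1, a kinase of centrosome maturation and mitotic exit, had the smallest fall of the entry genes in HCC827-Del-TM. The log2 intensities of PLK1 were 6.38, 6.49 and 6.23 in untreated HCC827-Del, 5.96, 5.70 and 6.05 in treated HCC827-Del, 6.52, 6.43 and 6.05 in untreated HCC827-Del-TM and 5.91, 5.29 and 5.34 in treated HCC827-Del-TM. Replicate 1 of treated HCC827-Del-TM was high among its group and lay within the range of treated HCC827-Del. PLK1 fell by 0.82 (SE 0.162) in HCC827-Del-TM and by 0.46 (SE 0.162, adjusted p = 0.0276) in HCC827-Del. The call in HCC827-Del ended with median scaling (adjusted p = 0.101), with cyclic loess (adjusted p = 0.0851) and when replicate 1 or 2 of the control or replicate 2 of treated HCC827-Del was left out (limma adjusted p = 0.0622 to 0.111). Without replicate 1 of treated HCC827-Del-TM, the difference of effects was -0.56 and passed (limma adjusted p = 0.033). MELK, a kinase of proliferating cells, went the other way in HCC827-Del. For MELK the log2 intensities were 9.55, 9.46 and 9.49 in untreated HCC827-Del, 9.85, 9.98 and 9.72 in treated HCC827-Del, 9.59, 9.80 and 9.30 in untreated HCC827-Del-TM and 8.56, 8.55 and 8.47 in treated HCC827-Del-TM. All 3 treated HCC827-Del arrays were above the 3 untreated ones, and the treated HCC827-Del-TM arrays were the lowest. MELK rose by 0.35 (SE 0.109, adjusted p = 0.0155) in HCC827-Del and fell by 1.04 (SE 0.109, adjusted p = 3.88e-06) in HCC827-Del-TM, a difference of -1.39 (SE 0.154). Its rise did not pass without replicate 2 of treated HCC827-Del (0.29, limma adjusted p = 0.0686). AURKA, the spindle pole kinase, and NEK2, a kinase of centrosome separation, gave -0.91 and -1.06 in HCC827-Del-TM, and -0.05 and -0.01 in HCC827-Del, neither of which passed.

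The 4 spindle checkpoint genes, whose products delay anaphase until chromosomes are attached, fell in HCC827-Del-TM with a median of -1.14, and 1 of them, the kinase gene TTK, fell in HCC827-Del (-0.42, adjusted p = 0.00183). MAD2L1, which encodes MAD2, had the lowest value in HCC827-Del-TM and BUB1B, which encodes BUBR1, the highest. On the arrays, MAD2L1 read 9.43, 9.63 and 9.38 in untreated HCC827-Del, 9.28, 9.27 and 9.32 in treated HCC827-Del, 10.06, 9.72 and 10.01 in untreated HCC827-Del-TM and 8.69, 8.75 and 8.80 in treated HCC827-Del-TM on the log2 scale. The treated HCC827-Del-TM arrays were lowest, the untreated HCC827-Del-TM arrays highest, and no 2 groups overlapped. MAD2L1 fell by 1.18 (SE 0.0952) in HCC827-Del-TM and gave -0.19 (adjusted p = 0.108) in HCC827-Del, which passed without background correction (-0.17, limma adjusted p = 0.0467). When its kept probes were averaged, the fall in HCC827-Del-TM was -0.57 and the difference of effects -0.41. BUB1B had log2 intensities of 6.60, 6.58 and 6.30 in untreated HCC827-Del, 6.00, 6.07 and 6.55 in treated HCC827-Del, 6.52, 6.64 and 6.55 in untreated HCC827-Del-TM and 5.63, 5.79 and 5.91 in treated HCC827-Del-TM. Replicate 3 of treated HCC827-Del lay among the untreated arrays and apart from replicates 1 and 2 of its group. BUB1B fell by 0.79 (SE 0.132) in HCC827-Del-TM, and its -0.29 in HCC827-Del did not pass (adjusted p = 0.0844), but passed at -0.46 without that replicate (limma adjusted p = 0.00419) and at -0.38 without replicate 3 of the control (limma adjusted p = 0.04). The difference of effects for BUB1B (-0.50, adjusted p = 0.0425) did not pass without any 1 of 7 arrays (replicate 3 of both HCC827-Del groups, all of untreated and replicates 1 and 2 of treated HCC827-Del-TM), at -0.53 to -0.33 (limma adjusted p = 0.0564 to 0.102), nor with no detection filter (limma adjusted p = 0.0703). BUB1, the kinase that recruits the checkpoint, fell by 1.16 in HCC827-Del-TM and stood at 0.01 in HCC827-Del.

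Genes of anaphase promotion and sister separation (4) fell in HCC827-Del-TM, with the widest range of any role. In HCC827-Del, CDC20 rose while UBE2C and ESPL1, which encodes the protease separase, fell. UBE2C, the ubiquitin-conjugating enzyme of the anaphase-promoting complex (APC/C), was lowest. The log2 intensities of UBE2C were 11.83, 11.80 and 11.87 in untreated HCC827-Del, 11.68, 11.56 and 11.48 in treated HCC827-Del, 12.18, 12.13 and 12.14 in untreated HCC827-Del-TM and 10.86, 10.72 and 10.67 in treated HCC827-Del-TM. No 2 groups overlapped, and untreated HCC827-Del-TM was highest. UBE2C fell by 1.40 (SE 0.0755) in HCC827-Del-TM and by 0.26 (SE 0.0755, adjusted p = 0.0108) in HCC827-Del. The fall in HCC827-Del did not pass with the mean over its 2 kept probes (-0.07, limma adjusted p = 0.51) or without replicate 3 of the treated cells (-0.21, limma adjusted p = 0.053). CDC20 encodes the activator of the APC/C that the checkpoint restrains. For CDC20 the log2 intensities were 12.20, 12.28 and 12.19 in untreated HCC827-Del, 12.43, 12.35 and 12.45 in treated HCC827-Del, 11.81, 11.86 and 11.81 in untreated HCC827-Del-TM and 10.80, 10.71 and 10.71 in treated HCC827-Del-TM. Treated HCC827-Del was highest and treated HCC827-Del-TM lowest, with no overlap between any groups. CDC20 rose by 0.18 (SE 0.0663, adjusted p = 0.0324) in HCC827-Del and fell by 1.09 (SE 0.0663) in HCC827-Del-TM, a difference of -1.27 (SE 0.0937, adjusted p = 2.55e-07). The rise did not pass with median scaling (adjusted p = 0.245), with only the 2 groups compared (adjusted p = 0.0691) or without any 1 of replicates 1 and 3 of the control and of the treated cells (limma adjusted p = 0.074 to 0.0992).

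PTTG1 encodes securin, which holds separase inactive until anaphase, and it had the smallest fall of all 41 genes where background was corrected. On the arrays, PTTG1 read 11.63, 11.44 and 11.47 in untreated HCC827-Del, 11.68, 11.69 and 11.55 in treated HCC827-Del, 11.83, 11.75 and 11.75 in untreated HCC827-Del-TM and 11.32, 11.36 and 11.29 in treated HCC827-Del-TM on the log2 scale. The treated HCC827-Del-TM arrays were still below the other 9. PTTG1 fell by 0.46 (SE 0.0743, adjusted p = 0.000192) in HCC827-Del-TM and gave 0.12 (adjusted p = 0.187) in HCC827-Del. Separase (ESPL1) fell by 1.16 and by 0.44 (adjusted p = 0.000718), so that in treated HCC827-Del-TM it stood at 44.8% of its untreated level and securin at 72.8% of its own. Without background correction, the falls of the 2 genes were close, at -0.56 and -0.45.

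Centromere and kinetochore genes (6) fell in HCC827-Del-TM with a median of -1.18, and NUF2 and CENPF fell in HCC827-Del. CENPM, a subunit of the constitutive centromere network, was lowest and had the largest difference of effects, though not without background correction. There CENPM gave -1.11 in HCC827-Del-TM and -0.07 in HCC827-Del, and CDC20, with -1.06 and 0.18, differed more. CENPM had log2 intensities of 8.28, 8.12 and 8.22 in untreated HCC827-Del, 8.17, 8.01 and 8.15 in treated HCC827-Del, 8.10, 8.24 and 8.23 in untreated HCC827-Del-TM and 6.50, 6.70 and 6.44 in treated HCC827-Del-TM. The other 9 arrays overlapped, over 1 log2 unit above treated HCC827-Del-TM. CENPM fell by 1.64 (SE 0.0855, adjusted p = 4.5e-09) in HCC827-Del-TM, gave -0.09 (adjusted p = 0.378) in HCC827-Del and differed by -1.54 (SE 0.121, adjusted p = 4.52e-07). NUF2, a subunit of the NDC80 complex that grips microtubules, had the highest value. The log2 intensities of NUF2 were 6.69, 6.80 and 6.83 in untreated HCC827-Del, 6.27, 6.59 and 6.34 in treated HCC827-Del, 6.61, 6.69 and 6.84 in untreated HCC827-Del-TM and 6.16, 5.58 and 5.82 in treated HCC827-Del-TM. The treated HCC827-Del-TM arrays lay below all others, with replicate 1 highest among them. NUF2 fell by 0.86 (SE 0.13) in HCC827-Del-TM and by 0.37 (adjusted p = 0.0292) in HCC827-Del, and its difference of -0.49 was close to the threshold (SE 0.184, adjusted p = 0.0466), which it missed without any 1 of 9 arrays (all but replicate 1 of treated HCC827-Del and replicate 1 of untreated and of treated HCC827-Del-TM), at -0.52 to -0.35 (limma adjusted p = 0.0555 to 0.115). It was also missed without background correction and with the authors' values (-0.22 in both, limma adjusted p = 0.0512 and 0.0586) and with no detection filter (limma adjusted p = 0.0763). Its other kept probe gave -1.28 and -0.07 with a difference of -1.22 (adjusted p = 7.42e-05 over all probes kept). The fall in HCC827-Del did not pass in 7 alternatives, 4 of them without replicate 2 or 3 of the control or 1 or 3 of treated HCC827-Del, at values from -0.36 to -0.22 (limma adjusted p = 0.0688 to 0.172). CENPA, the histone variant that marks centromeres, CENPE, a kinetochore motor, CENPF and NDC80 fell by 1.27, 1.09, 1.38 and 1.09 in HCC827-Del-TM, while in HCC827-Del CENPF fell by 0.32 and the others gave 0.02, -0.21 (adjusted p = 0.0525) and -0.17. The call on CENPF ended with median scaling (-0.26, adjusted p = 0.0834). CENPE passed in HCC827-Del without replicate 2 of treated HCC827-Del (-0.30, limma adjusted p = 0.0145) or replicate 2 of treated HCC827-Del-TM (-0.21, limma adjusted p = 0.0441), and in 5 other alternatives at -0.21 to -0.17 (without background correction, with the authors' values, with genes detected on all arrays, with eBayes trend and with the replicate block, limma adjusted p = 0.0227 to 0.0414).

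Of the chromosomal passenger complex, which corrects attachments and guides cytokinesis, AURKB and BIRC5 were listed, and both fell in HCC827-Del-TM. AURKB is the kinase of the complex. For AURKB the log2 intensities were 9.72, 9.64 and 9.58 in untreated HCC827-Del, 9.14, 9.17 and 9.05 in treated HCC827-Del, 9.35, 9.34 and 9.37 in untreated HCC827-Del-TM and 7.78, 7.68 and 7.85 in treated HCC827-Del-TM. The groups did not overlap, and the lowest 3 values were those of treated HCC827-Del-TM. AURKB fell by 1.58 (SE 0.072, adjusted p = 1.47e-09) in HCC827-Del-TM and by 0.53 (SE 0.072, adjusted p = 3.7e-05) in HCC827-Del. BIRC5 encodes survivin, which brings the complex to centromeres. On the arrays, BIRC5 read 7.74, 7.64 and 7.69 in untreated HCC827-Del, 7.68, 7.40 and 7.34 in treated HCC827-Del, 7.50, 7.55 and 7.35 in untreated HCC827-Del-TM and 6.35, 6.66 and 6.24 in treated HCC827-Del-TM on the log2 scale. In treated HCC827-Del, replicate 1 lay among the untreated arrays of that line and the other 2 below them. BIRC5 fell by 1.05 (SE 0.114) in HCC827-Del-TM, and its -0.22 in HCC827-Del did not pass (adjusted p = 0.121), whereas its other, dimmer probe fell there by 0.43 (adjusted p = 0.0222 over all probes kept). Without replicate 1 of the treated cells it passed at -0.33 (limma adjusted p = 0.0328), as it did with the mean over its probes (-0.33, limma adjusted p = 0.017).

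Chromosome structure genes (3 kept) fell in HCC827-Del-TM by 0.70 to 1.06. TOP2A encodes the topoisomerase that untangles sister chromatids. TOP2A had log2 intensities of 12.15, 12.23 and 12.21 in untreated HCC827-Del, 11.92, 11.96 and 11.93 in treated HCC827-Del, 12.26, 12.38 and 12.56 in untreated HCC827-Del-TM and 11.36, 11.37 and 11.29 in treated HCC827-Del-TM. Both treated groups lay below their controls without overlap, and the values of treated HCC827-Del-TM were the lowest. TOP2A fell by 1.06 (SE 0.0788) in HCC827-Del-TM and by 0.26 (SE 0.0788, adjusted p = 0.0139) in HCC827-Del, a call that ended with median scaling (-0.28, adjusted p = 0.0546). NCAPG, a subunit of condensin I, rose in HCC827-Del. The log2 intensities of NCAPG were 8.74, 8.82 and 8.88 in untreated HCC827-Del, 8.99, 9.07 and 9.08 in treated HCC827-Del, 8.99, 9.09 and 9.08 in untreated HCC827-Del-TM and 8.08, 8.12 and 8.01 in treated HCC827-Del-TM. Treated HCC827-Del and untreated HCC827-Del-TM had like values, above untreated HCC827-Del, and treated HCC827-Del-TM was low. NCAPG rose by 0.24 (SE 0.0693, adjusted p = 0.0114) in HCC827-Del, which did not pass with median scaling (0.27, adjusted p = 0.0555), and fell by 0.98 (SE 0.0693) in HCC827-Del-TM. MKI67 encodes Ki-67, the proliferation antigen that coats mitotic chromosomes. For MKI67 the log2 intensities were 5.41, 5.29 and 5.48 in untreated HCC827-Del, 5.27, 5.37 and 5.51 in treated HCC827-Del, 5.43, 5.57 and 5.74 in untreated HCC827-Del-TM and 5.19, 4.85 and 4.59 in treated HCC827-Del-TM. Its probe was close to the detection limit, and only replicate 1 of treated HCC827-Del-TM was detected among the 3. MKI67 fell by 0.70 (SE 0.131, adjusted p = 0.000591) in HCC827-Del-TM and stood at -0.01 (adjusted p = 0.958) in HCC827-Del.

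The 5 kinesin motors had the lowest median of the 8 roles in HCC827-Del-TM (-1.33, against -1.31 for the passenger complex), and 3 of them fell in HCC827-Del. Without background correction KIF11, KIF23 and KIF4A gave -0.67, -0.91 and -0.87 in HCC827-Del-TM, and the median of the motors was no longer the lowest. KIF20A, the motor that carries the passenger complex to the central spindle, had the lowest log2 fold change of all members in both lines. On the arrays, KIF20A read 9.97, 9.94 and 9.99 in untreated HCC827-Del, 9.29, 9.19 and 9.11 in treated HCC827-Del, 9.56, 9.83 and 9.75 in untreated HCC827-Del-TM and 8.03, 8.00 and 8.05 in treated HCC827-Del-TM on the log2 scale. No groups overlapped, and untreated HCC827-Del was highest. KIF20A fell by 1.69 (SE 0.0798, adjusted p = 2.01e-09) in HCC827-Del-TM, to 31.1% of its control, and by 0.77 (SE 0.0798, adjusted p = 2.58e-06) in HCC827-Del. KIF11 drives the spindle poles apart and had the smallest fall of the motors. KIF11 had log2 intensities of 7.54, 7.35 and 7.63 in untreated HCC827-Del, 7.16, 7.35 and 7.48 in treated HCC827-Del, 7.77, 7.78 and 7.69 in untreated HCC827-Del-TM and 6.72, 6.87 and 6.61 in treated HCC827-Del-TM. Treated HCC827-Del-TM was lowest and untreated HCC827-Del-TM highest, and the HCC827-Del groups overlapped between them. KIF11 fell by 1.02 (SE 0.1) in HCC827-Del-TM and gave -0.18 (adjusted p = 0.162) in HCC827-Del. KIF23, a component of centralspindlin, KIF2C, a microtubule depolymerase, and KIF4A, a chromokinesin, fell by 1.35, 1.33 and 1.13 in HCC827-Del-TM. In HCC827-Del KIF2C and KIF4A fell by 0.38 and 0.27, and KIF23 gave -0.24 (adjusted p = 0.14), with -0.53 from its other probe (adjusted p = 0.00433 over all probes kept). KIF23 passed there with the mean over its probes (-0.38, limma adjusted p = 0.00224) and with the authors' values (-0.19, limma adjusted p = 0.0473). The call on KIF4A ended with median scaling and without replicate 3 of the control or 2 of treated HCC827-Del (-0.23 to -0.22, limma adjusted p = 0.0718 to 0.151).

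Genes of spindle assembly and microtubule binding (8) fell in HCC827-Del-TM with a median of -1.07, and in HCC827-Del only SPAG5 passed the test. NUSAP1, which bundles spindle microtubules, was lowest. The log2 intensities of NUSAP1 were 10.01, 9.89 and 9.90 in untreated HCC827-Del, 10.05, 10.04 and 9.86 in treated HCC827-Del, 10.10, 10.14 and 10.18 in untreated HCC827-Del-TM and 8.89, 9.04 and 8.89 in treated HCC827-Del-TM. The 3 arrays of treated HCC827-Del-TM were low, and the other groups lay close together. NUSAP1 fell by 1.20 (SE 0.0778) in HCC827-Del-TM and stood at 0.05 (adjusted p = 0.606) in HCC827-Del. CKAP2, a microtubule-stabilising protein, had the smallest fall, save without background correction, where SPAG5 did. For CKAP2 the log2 intensities were 8.26, 8.37 and 8.10 in untreated HCC827-Del, 8.08, 7.99 and 8.29 in treated HCC827-Del, 8.29, 8.23 and 8.28 in untreated HCC827-Del-TM and 7.44, 7.60 and 7.67 in treated HCC827-Del-TM. Treated HCC827-Del-TM lay below the other 9 arrays, which overlapped. CKAP2 fell by 0.69 (SE 0.0956) and gave -0.12 (adjusted p = 0.296) in HCC827-Del. SPAG5 encodes astrin, which steadies kinetochore attachments, and its probe was the dimmest of the 41. On the arrays, SPAG5 read 5.45, 5.22 and 5.47 in untreated HCC827-Del, 4.93, 4.91 and 4.74 in treated HCC827-Del, 5.80, 5.41 and 5.70 in untreated HCC827-Del-TM and 5.01, 4.75 and 4.61 in treated HCC827-Del-TM on the log2 scale. Both treated groups were low and overlapped, and neither replicate 3 of treated HCC827-Del nor any treated HCC827-Del-TM array passed detection. SPAG5 fell at least 1.51-fold in HCC827-Del-TM (limma adjusted p = 6.66e-05) and by 0.52 log2 units in HCC827-Del (adjusted p = 0.00259). In HCC827-Del, SPAG5 gave only -0.17 without background correction and -0.16 with the authors' values, and still passed (limma adjusted p = 0.0153 and 0.0155). Its difference of effects passed without replicate 2 of untreated HCC827-Del-TM (-0.44, limma adjusted p = 0.0493). TPX2, the activator of AURKA, PRC1, which bundles the central spindle, HMMR, DLGAP5 and ASPM, a spindle pole protein, fell by 1.00 to 1.13 in HCC827-Del-TM and gave -0.17 to 0.04 in HCC827-Del, where none passed. ASPM passed there without replicate 3 of the treated cells (-0.24, limma adjusted p = 0.036), without background correction and with the authors' values (-0.15 in both, limma adjusted p = 0.0378 and 0.0412).

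**Figure D4:**
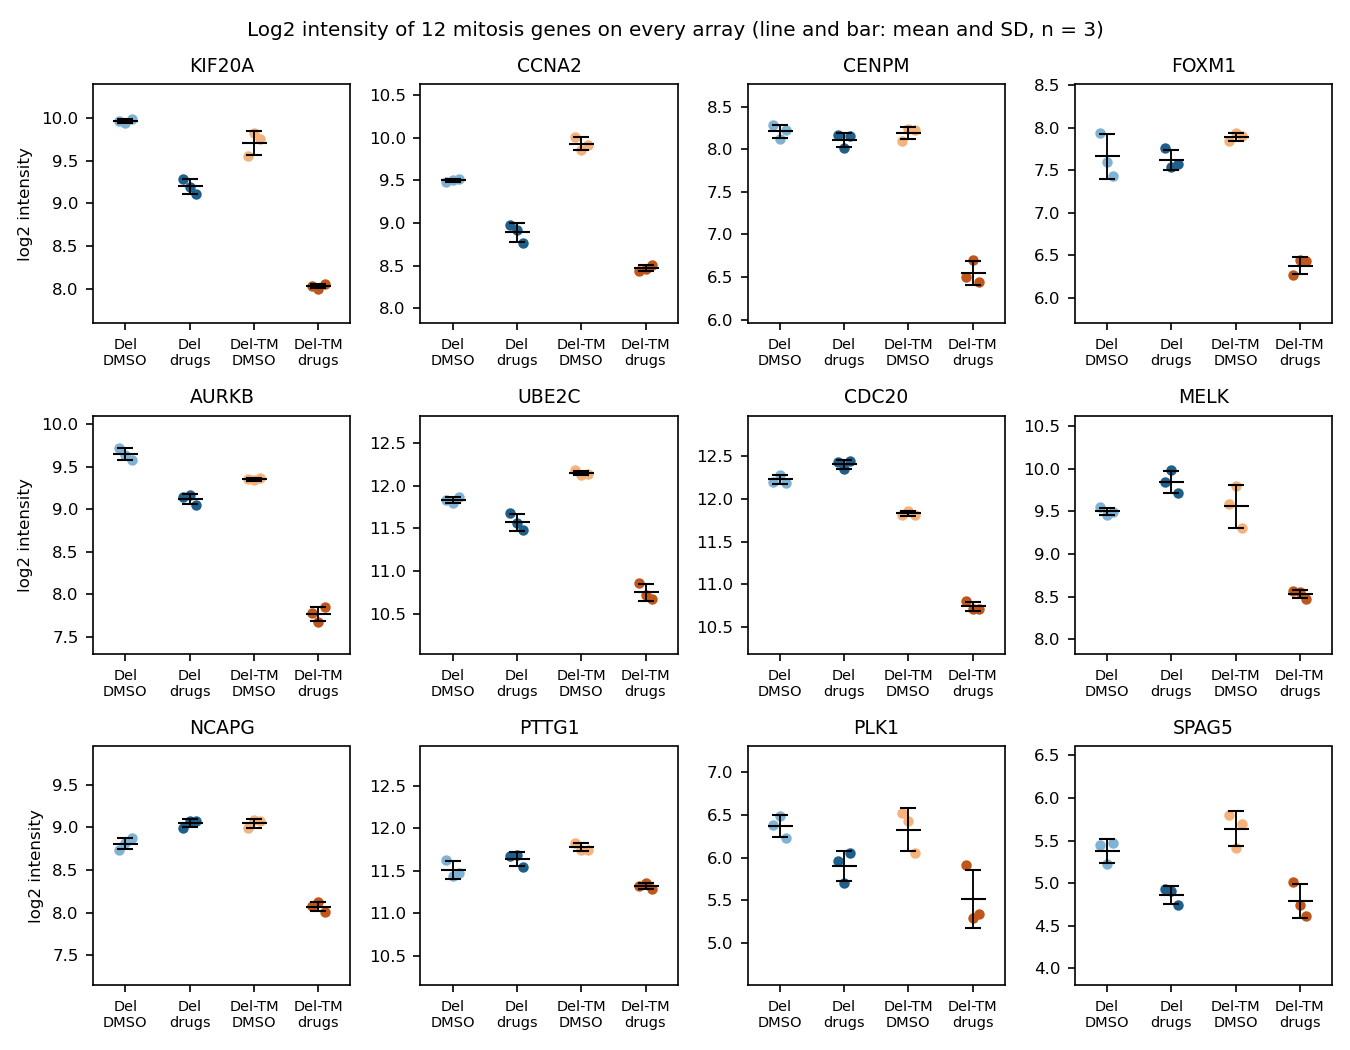
Log2 intensity (vertical axes, equal spans) of 12 mitosis genes on every array of the 4 groups. Points are arrays, and the line and bar are the mean and SD (n = 3). In each panel, the lowest group mean is that of treated HCC827-Del-TM.

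Before treatment, the lines differed little in these genes: 8 members were higher and 4 lower in HCC827-Del-TM and 29 did not pass, where 16.2% of all genes were called higher and 20.3% lower. The median difference was 0.06 log2 units, against -0.03 over all genes. The higher ones were MAD2L1 (0.45), CCNA2 (0.43), CENPE (0.37), UBE2C (0.32), NEK2 (0.29), PTTG1 (0.26), CDK1 (0.25) and NCAPG (0.24), and the lower ones HMMR (-0.45), CDC20 (-0.40), AURKB (-0.30) and KIF20A (-0.26). None reached 0.5 log2 units. The arrays of the lines did not overlap for 10 members that were higher and 6 that were lower, against 20.7% and 26.5% of all genes. With median scaling 3 were higher and 3 lower. The shares of all genes in this paragraph were taken with quantile normalization, so they are no background for these counts. MAD2L1 did not pass when its kept probes were averaged (0.14, limma adjusted p = 0.206). Leaving out 1 array ended the call on PTTG1 (replicate 2 of HCC827-Del, 0.23), NCAPG (replicate 1 of HCC827-Del or 2 of HCC827-Del-TM, 0.20 and 0.22), KIF20A (replicates 1 and 3 of HCC827-Del and 1 of HCC827-Del-TM, -0.26 to -0.18) and CDK1 (replicates 1 and 3 of HCC827-Del and 1 and 2 of HCC827-Del-TM, 0.18 to 0.23). NEK2 did not pass without replicate 2 or 3 of HCC827-Del, any untreated array of HCC827-Del-TM or replicate 1 or 2 of treated HCC827-Del-TM, at 0.20 to 0.30. FOXM1, KIF23, NUSAP1, SPAG5 and TOP2A each passed without 1 array, at 0.37 (without replicate 1 of HCC827-Del), -0.35 (without replicate 3 of HCC827-Del-TM), 0.20 and 0.24 (without replicate 3 of treated or replicate 1 of untreated HCC827-Del), 0.37 (without replicate 2 of HCC827-Del-TM) and 0.27 (without replicate 1 of HCC827-Del-TM).

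After treatment, 40 of the 41 genes were lower in HCC827-Del-TM than in HCC827-Del, where 33.7% of all genes were. With median scaling, 41.6% of all genes were called lower and 18.1% higher, in place of 33.7% and 29.4%, and the median of all genes moved from -0.02 to -0.18. The members' median was -0.82 (-0.97 with median scaling), and 14 of them were lower by at least 1 log2 unit, against 7.14% of all genes. CDC20 (-1.67, SE 0.0663, adjusted p = 8.04e-11) and CENPM (-1.56) differed most. HMMR, which binds hyaluronan and spindle microtubules, followed with AURKB and KIF23, at -1.49, -1.35 and -1.34. Over the alternatives CENPM ran from -1.73 to -1.05 and HMMR from -1.63 to -1.28, so CENPM was not ahead of HMMR in all of them. SPAG5 (-0.07, adjusted p = 0.643) did not pass, and the call on PLK1 (-0.39, adjusted p = 0.0485) ended in 12 alternatives, 8 of them with 1 array left out (replicates 1, 2 and 3 of untreated HCC827-Del, 1 and 3 of treated HCC827-Del, 2 of untreated and 2 and 3 of treated HCC827-Del-TM, -0.39 to -0.28). BUB1B (-0.43) did not pass without replicate 3 of treated HCC827-Del (-0.26) or replicate 1 of treated HCC827-Del-TM (-0.36). The arrays of the lines did not overlap for 39 of the 41, all lower in HCC827-Del-TM, against 35.8% of all genes, and overlapped for PLK1 and SPAG5. This comparison shares its arrays with those within each line, so it gives the same values seen from another side.

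Besides the tested probe, 19 of the members had other kept probes, 20 in all. In HCC827-Del-TM, 19 of the 20 were also called lower, with a median of -0.95 against -1.06 for the tested probes of the same genes. The exception was the second probe of MAD2L1 (0.05), which was detected on 4 of the 12 arrays. In HCC827-Del, 2 of the 20 were called lower and 1 higher, the higher one being the other probe of MELK (0.27, adjusted p = 0.00847 over all probes kept). No member had probes past the threshold in opposite directions. With background correction, brighter and dimmer members gave like medians in HCC827-Del-TM (-1.10 for the 20 brighter and -1.09 for the 21 dimmer). In HCC827-Del these medians were -0.04 and -0.24. Without background correction, the falls in HCC827-Del-TM that shrank most in proportion were those of the 10 dimmest members. Among these 10, FOXM1 went from -1.51 to -0.97 and MKI67 from -0.70 to -0.23. Medians by brightness were not taken without background correction, so their likeness is shown only with it.

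Other genes of the cell cycle were set beside the members as lists chosen with earlier results known, and they are described by counts, to be read against all genes, of which 24.1% fell and 21.7% rose in HCC827-Del-TM, and 26.5% fell and 24.8% rose in HCC827-Del. In HCC827-Del-TM, 35 of 40 DNA replication genes fell and 0 rose (median -0.97), with RRM2, a ribonucleotide reductase subunit (-1.79), TYMS, thymidylate synthase (-1.72) and the helicase subunit MCM4 (-1.71) lowest. Of 29 further centromere and kinetochore genes, 23 fell and 0 rose (median -0.77), among them ZWINT (-1.49), the CENPA chaperone HJURP (-1.41) and the passenger subunit CDCA8 (-1.22). Other condensin subunits fell in 5 of 6 cases (median -0.85), including NCAPD3 (-1.02), NCAPG2 (-0.99) and SMC4 (-0.92). Of 8 genes of the brake on CDK1 and its release, 6 fell, led by the kinase PKMYT1 (-1.18) and the phosphatases CDC25C (-1.15) and CDC25A (-1.07).

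The other lists had medians closer to 0 in HCC827-Del-TM, and the share of cohesin genes that fell was near that of all genes. Of 13 core APC/C genes, 8 fell and 1 rose (median -0.28), with ANAPC7 at -0.79, ANAPC1 at -0.70 and CDC26 at 0.44. Of 12 cohesin genes 4 fell and 1 rose (median -0.15), with the lowest values in CDCA5, which encodes sororin (-1.72), and SGO1, shugoshin (-0.95). Of 12 genes of DREAM and MuvB 6 fell and 0 rose (median -0.29), among them TFDP1 (-0.78) and E2F4 (-0.57), and RBL1, which encodes p107 and was undetected after treatment, was at least 1.12-fold lower. MYBL2, the late activator that joins MuvB, was undetected in both groups. Of 11 G1 cyclins, kinases and E2F genes 7 fell and 0 rose (median -0.36), with E2F2 (-1.26), CCND3 (-0.55) and E2F3 (-0.51) lowest among those called.

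In HCC827-Del the same lists held members in both directions, and the shares of DNA replication and APC/C genes that fell were near that of all genes. DNA replication genes fell in 9 of 40 cases and rose in 5 (median -0.09), with MCM5 (-0.96), CDT1 (-0.61) and POLD1 (-0.49) lowest. Of the further kinetochore genes 9 rose and 2 fell (median 0.06), with PMF1 at -1.32, CENPQ at 0.73 and CENPW at 0.56. G1 genes rose in 4 of 11 cases and fell in 2, among them the cyclins CCNE1 (0.96) and CCND3 (0.68). CCND2, another cyclin gene, was counted as a rise through a probe detected on the 3 treated HCC827-Del arrays alone, which was at least 2.06-fold higher there. When 1 of these was left out another of its probes was tested, which gave 0.08 to 0.31 and did not pass (limma adjusted p = 0.256 to 0.793). Of the cohesin genes 7 fell and 1 rose (median -0.29), with STAG1 at 0.89, the loader subunit MAU2 at -0.65 and STAG2 at -0.61. DREAM and MuvB genes fell in 5 of 12 cases and rose in 2 (median -0.07), with RBBP4 (-0.76), LIN9 (-0.65) and E2F5 (-0.64) lowest, though RBBP4 did not pass when its kept probes were averaged (-0.19, limma adjusted p = 0.107). APC/C genes fell in 3 of 13 and rose in 2, with ANAPC16 at -0.64, ANAPC1 at -0.52 and CDC26 at 0.42. On the brake list, CDC25B fell (-0.89) and ENSA rose (0.55). Among condensin subunits NCAPD2 fell (-0.38) and SMC2 rose (0.22). The rise of SMC2 did not pass without any 1 of replicates 1, 2 and 3 of the control or 2 and 3 of treated HCC827-Del (0.17 to 0.24, limma adjusted p = 0.0578 to 0.146).

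Of 6 CDK inhibitor genes, 2 rose and 2 fell in HCC827-Del, and 2 rose and 1 fell in HCC827-Del-TM. CDKN1A, which encodes p21, rose by 2.79 (SE 0.0789, adjusted p = 4.04e-12) in HCC827-Del, where the mitosis genes had a median of -0.18, and by 2.27 (SE 0.0789, adjusted p = 1.06e-10) in HCC827-Del-TM, where they had one of -1.10. CDKN2B, which encodes p15, rose by 1.47 in HCC827-Del-TM and gave 0.02 (adjusted p = 0.853) in HCC827-Del. CDKN2D, which encodes p19, rose by 1.19 in HCC827-Del and fell by 0.28 in HCC827-Del-TM, and CDKN1B, which encodes p27, fell by 0.80 in HCC827-Del and stood at 0.02 (adjusted p = 0.921) in HCC827-Del-TM.

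**Figure D5:**
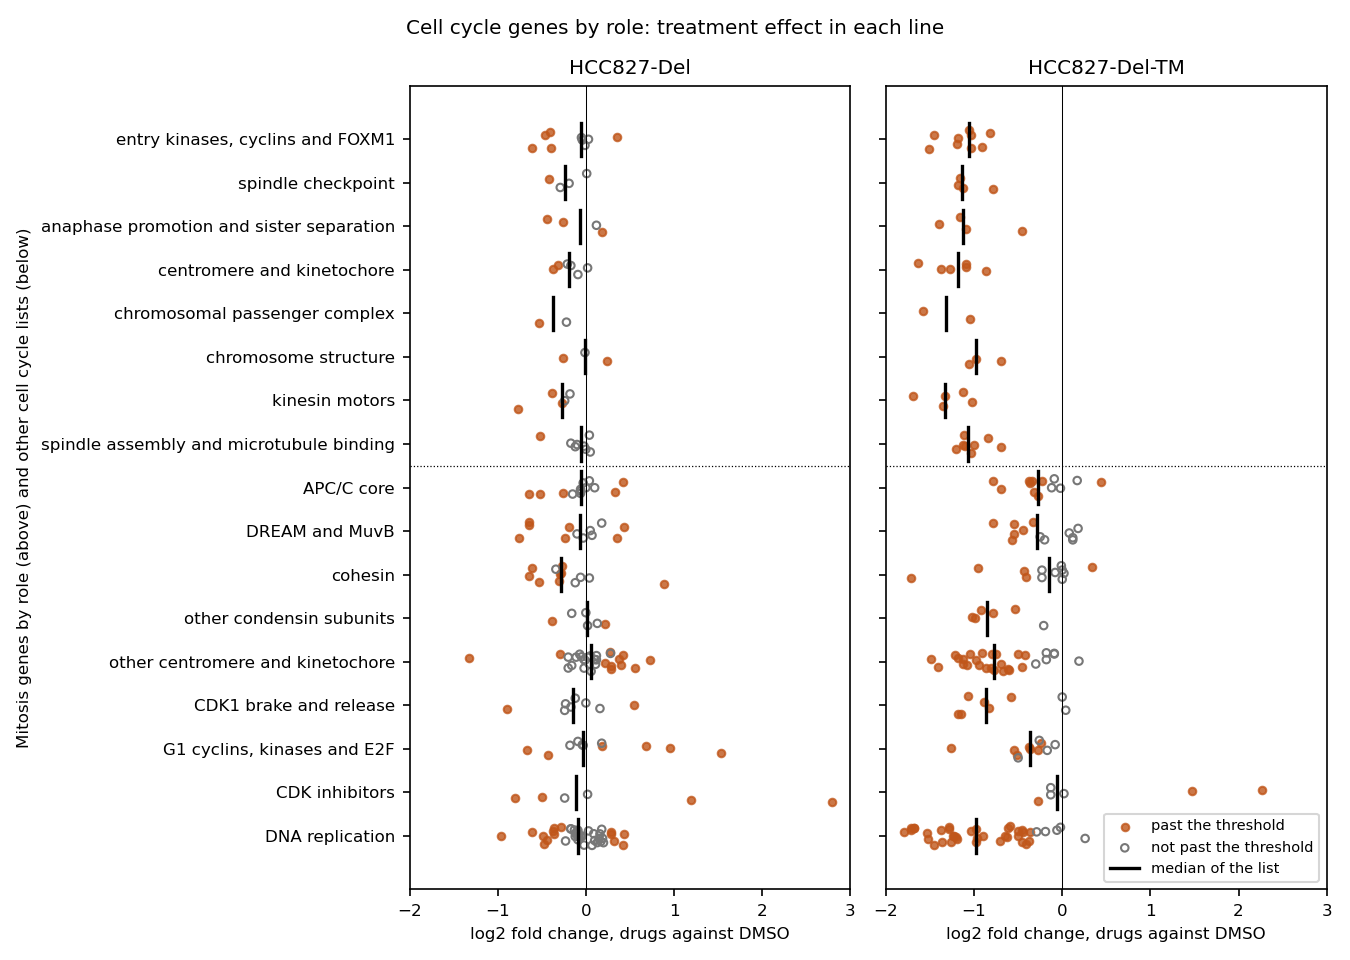
Log2 fold change with the drugs (horizontal axes) of the mitosis genes by role, above the dotted line, and of other cell cycle lists, below it, in each line. Filled points passed the threshold, open points did not, bars are list medians, and fitted values are drawn also for genes undetected in a group. All filled points of the 8 mitosis roles lie below 0 in HCC827-Del-TM, and the CDK inhibitor CDKN1A lies furthest to the right in both lines.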

How the data were processed

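The 42 genes and the other lists were chosen with earlier results of these data known. Per the file headers, the authors deposited a signal intensity and a detection p-value for each probe and array, not background-subtracted or normalized; the p-value column follows its array's signal column. The deposited series table holds log2 values, which the values show to be quantile-normalized between arrays by the authors without background subtraction. The sources used here name no software. The replicates are biological per the labels.

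Background was corrected with limma 3.58.1 (nec, offset 16, noise estimated from the detection p-values) in R 4.3.3, followed by quantile normalization and log2. Of 47323 probes, 30113 had 1 gene symbol, 8 several and 17202 none. Probes with a detection p under 0.01 on 3 or more arrays were kept (19833, of which 15667 had a symbol), and each of 11808 genes was tested with its kept probe of highest mean. All 12 arrays entered 1 limma fit (lmFit, eBayes) with a coefficient per group and 5 contrasts, and p was adjusted by Benjamini and Hochberg over all genes, with a threshold of 0.05. Differences are log2 units, and the median standard error over genes was 0.0955 (0.135 for the difference of effects); the number of arrays limits this precision. On simulated data, the fit was tested on 11808 genes and recovered 100% of changes of 2-fold and 74% of 1.5-fold for treatment in HCC827-Del-TM, 96% and 79% in HCC827-Del, and 93% and 56% for the difference of effects. The simulated noise was independent between genes, and far fewer genes were changed than were called in the data. These percentages are therefore not the power of the contrasts here. A gene undetected on all 3 arrays of a group has only a bound there, given as "at least". The mean of the brighter group is set against a floor on each array of the other group. That floor is the lowest signal of any probe with a detection p under 0.01, or the gene's own signal where higher.

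Values on every array are given for the members with the highest and lowest fold change of each role in HCC827-Del-TM, the 3 highest and 3 lowest differences of effects and the members that rose. Further named are members called in HCC827-Del, the member that failed the filter and, of other lists, up to 3 called genes by size per line with CDKN1A and MYBL2. Other members are named to complete their role. Same-numbered replicates did not deviate together (correlations of -0.02 to 0.05), so numbers were not used as pairs. Promoters came from RefSeq (GRCh38.p14) and were searched on both strands with Python 3.11.15.

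The alternatives were scaling by medians or cyclic loess in place of quantiles, uncorrected background, the authors' log2 values, a stricter detection filter or none, the mean over probes, eBayes with trend, only the groups compared, the replicate number as a block and each array left out. A block for the chip could not be run, since neither headers nor labels give it.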

Additional observations from a re-analysis of the deposited data

Results flagged for a closer look

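The difference between the treatment effects of the lines, which was tested in the same limma fit, passed for 39 of the 41 kept mitosis genes, each lower in HCC827-Del-TM. Of these, 3 were brought forward because they rose in HCC827-Del and fell in HCC827-Del-TM: MELK differed by -1.39, CDC20 by -1.27 and NCAPG by -1.22 log2 units. Their rises did not pass in every alternative. With median scaling those of CDC20 and NCAPG did not (limma adjusted p = 0.245 and 0.0555). That of MELK did not without replicate 2 of treated HCC827-Del (limma adjusted p = 0.0686). CENPM (-1.54) and FOXM1 (-1.47) had, with MELK, the lowest differences of all members, and neither passed in HCC827-Del. Without background correction FOXM1 differed by -0.94, and CDC20 differed more than CENPM. NUF2 (-0.49) had the highest difference among those that passed, and its other probe gave -1.22; without background correction it was -0.22 and did not pass (limma adjusted p = 0.0512). What sets the lines apart was not tested.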

How the results depend on the processing

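All 41 falls in HCC827-Del-TM kept their direction and passed under each of the 10 other settings in which the gene was tested and with each of 12 arrays left out in turn. Their median moved from -1.10 to -1.16 with median scaling, -1.07 with cyclic loess, and -0.91 both without background correction and with the authors' log2 values. In HCC827-Del the median moved from -0.18 to -0.13 with median scaling and to -0.14 with cyclic loess, without background correction and with the authors' values, and the members called higher fell from 3 to 1 with median scaling. Between untreated lines the median of 0.06 became 0.01 with median scaling, 0.09 with cyclic loess and 0.04 without background correction, and 3 members in place of 8 were higher with median scaling. Between treated lines the median of -0.82 became -0.97, -0.80 and -0.68 under those settings in turn, -0.69 with the authors' values and -0.79 with the mean over probes. The difference of effects, -0.93, became -1.05, -0.96, -0.77 and -0.78 with median scaling, cyclic loess, no background correction and the authors' values. Median scaling moved the median of all genes to -0.18 between treated lines and to -0.10 for the difference of effects. Without background correction and with the authors' values, 10 members moved by over 1.5 times in HCC827-Del-TM, 4 of those called in HCC827-Del, and 9 each between treated lines and for the difference of effects, all with smaller values. The cause of these moves was not tested.

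With 1 array left out, the median lay between -0.21 and -0.15 in HCC827-Del (13 to 16 lower, 2 to 3 higher), between -1.14 and -1.07 in HCC827-Del-TM (41 lower), between 0.04 and 0.09 for untreated lines (3 to 5 lower, 6 to 9 higher), between -0.87 and -0.82 for treated lines (38 to 40 lower) and between -0.98 and -0.91 for the difference of effects (37 to 39 lower). Same-numbered samples shared only a number. With the replicate number as a block, 16 members were lower and 3 higher in HCC827-Del, 41 lower in HCC827-Del-TM, 4 lower and 8 higher between untreated lines, 40 lower between treated lines and 37 lower for the difference of effects, where BUB1B (adjusted p = 0.0523) and NUF2 (adjusted p = 0.068) no longer passed. A chip block was not run. Signals close to background limit SPAG5, MKI67 and NCAPH.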
